A study of Mus musculus with 3 samples.

Results

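The p53 gene *Trp53*, 4 genes whose products act on p53 and 4 targets of p53 were examined for open chromatin in mouse leukaemia cells. The 9 genes were *Trp53*, *Mdm2*, *Mdm4*, *Ppm1d*, *Prmt5*, *Sesn2*, *Trp53inp1*, *Gadd45a* and *Fas*, out of 21951 protein-coding genes in the annotation. They were chosen by name as a p53 circuit, by a rule that used no value of a peak list. Earlier results of these data were known when they were chosen. Their regions were all peaks that overlapped a gene body extended by 10 kb on both sides. Peaks of different lists that shared at least 1 bp were joined to a region, which gave 26 regions at the 9 loci of 50965 in the genome.

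The data were ATAC-seq peak lists, 1 for each of 4 pre/pro-B-cell lines. In this assay a transposase cuts accessible DNA and attaches sequencing adapters to it. The lines came from bone marrow of C57BL/6 mice and all carried the BCR-ABL(p185) oncogene from a retrovirus that also encodes GFP. Both copies of *Cdk6* were wildtype (*Cdk6*+/+, here WT) or carried the kinase-inactive K43M allele (*Cdk6*KM/KM, here K43M), and no drug was given in either group. The lists are called WT unnumbered, WT replicate 2, K43M replicate 1 and K43M replicate 2, and values below follow this order. WT unnumbered has no sample label of its own and was put in the wildtype group from the design text of the series, by which the first wildtype line had been submitted earlier and was processed again. Each line is a separate transformed culture, so 2 lines stand for a genotype and differences between lines cannot be told apart from differences between genotypes in a single pair. In a culture of many cells, a smaller share of cells with an open site and a weaker opening in every cell also cannot be told apart.

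p53 is a transcription factor that is kept low by its ubiquitin ligase Mdm2 and by the Mdm2 partner Mdm4, which masks the activation domain of p53. Damage and oncogene signals release it, after which it binds paired half-sites in DNA and switches on genes for growth arrest, repair and cell death. *Mdm2* and *Ppm1d*, a phosphatase that turns off damage signalling, are themselves p53 targets and close a feedback loop. *Prmt5* encodes an arginine methyltransferase with p53 and histones among its substrates. The circuit is a known barrier to transformation by oncogenes such as BCR-ABL.

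The libraries gave 33038 to 39038 peaks, with K43M replicate 1 the longest, and the median fold enrichment per list was 6.61 to 6.94. Fold enrichment is the signal at the summit of a peak over the background of the same library around it, with 1 added to both. It is therefore lower than the plain ratio, most of all where the background is low. The median number of read ends at a summit, recovered from the peak scores and here called pileup, was 22 to 26. Of 10 B-lineage markers, 8 had a promoter peak in all 4 lists, *Pax5* and *Ebf1* among them, and *Cd79b* and *Rag1* lacked it in K43M replicate 2. None of 6 myeloid markers had a promoter peak in any list. Among 6 T-cell markers *Lck* had one in all 4 lists and *Cd3d* in WT replicate 2, and among 4 megakaryocyte markers *Itga2b* had one in 3 lists.

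All 9 genes had a promoter peak in every list. A promoter peak overlapped a window from 2000 bp before to 200 bp after an annotated transcript start. The share of all protein-coding genes with this pattern was 47.6%. None of the 9 had a promoter peak in both WT lists only (0.515% of all genes) or in both K43M lists only (2% of all genes). The 26 regions comprised 12 at promoters of the members, 5 inside the genes and 9 in the flanks. Promoter regions were present in all 4 lists in 11 of 12 cases, internal regions in 1 of 5 and flanking regions in 4 of 9.

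Of the 26 regions, 16 had a peak in all 4 lists, against 41.2% of all regions. No region had a peak in both WT lists and in neither K43M list, a pattern of 4.51% of all regions. A peak in both K43M lists and in neither WT list was found at 2 regions, one past the 3′ end of *Mdm2* and one upstream of *Trp53inp1*, against 7.64% of all regions. The other 8 regions did not follow the genotypes, and 5 of them were seen in a single list. Genome-wide, with a promoter of any gene counted, 65.8% of promoter regions and 29.1% of the others were in all 4 lists. The class of a region thus went with its pattern in the whole data set as well. By this wider definition 14 of the 26 member regions lay at a promoter. It adds *Trp53* region 3 (at *Wrap53*) and *Ppm1d* region 4 (at *Bcas3*), both in all 4 lists. The only internal region in all 4 lists was therefore also at a promoter.

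**Figure D1:**
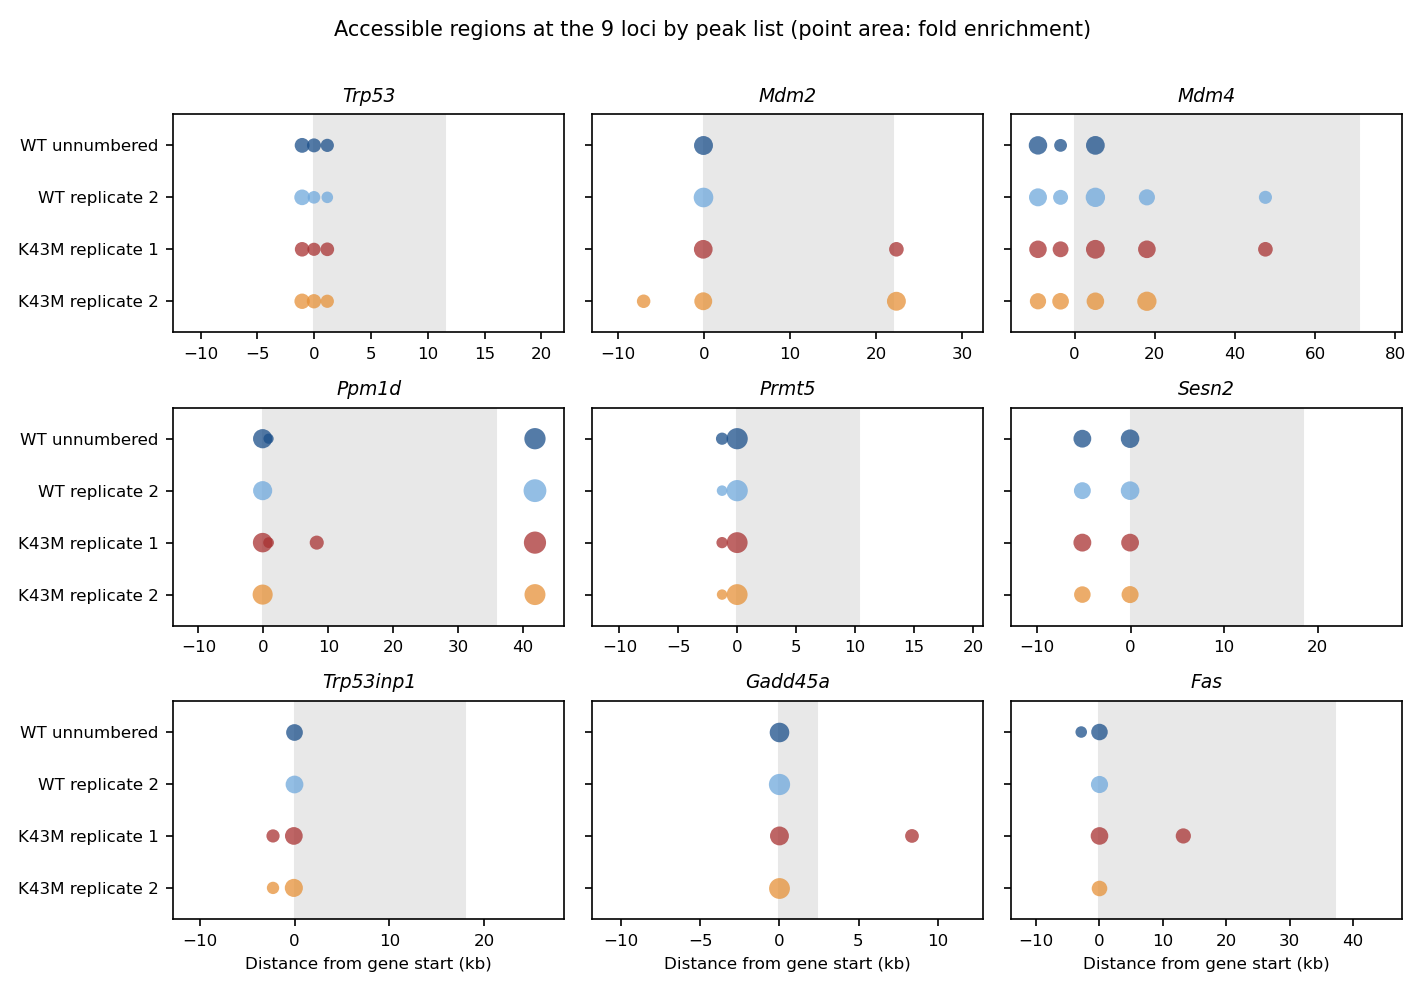
Each panel shows 1 gene, the x axis gives the distance of the region's summit from the gene start in kb, the grey band is the gene body, rows are the 4 peak lists and the area of a point is the fold enrichment of the peak. Each of the 9 genes has a promoter point in all 4 rows. The points in introns of *Mdm4*, *Ppm1d* and *Fas* are in 1 to 3 rows, and the intron point of *Trp53* is in all 4. The only points in both K43M rows and in no WT row lie past the end of *Mdm2* and upstream of *Trp53inp1*.

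The lists held 19, 20, 25 and 22 peaks at the 9 loci. The mean was 19.5 in WT and 23.5 in K43M, and both K43M counts lay above both WT counts. A two-sided exact permutation test over the 4 libraries gave p = 0.333, the smallest p that 2 against 2 libraries allow. Outside the promoter regions of the members the counts were 7, 8, 12 and 10. The lists held 33038, 34248, 39038 and 34752 peaks in all. The share of each list's peaks of this class was not computed, so these counts cannot be read as particular to the 9 loci. The share of a list's peaks that lay at the 9 loci was 0.0575%, 0.0584%, 0.0640% and 0.0633%. With the lists cut to the same number of peaks, the counts were 19, 19, 23 and 21.

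*Trp53* lies on chromosome 11 at 69580359 to 69591873 (GRCm38, plus strand), head to head with *Wrap53*, which encodes a telomerase and Cajal body protein. It had 3 regions, and all 3 also lay in promoter windows of *Wrap53*. Region 1 had its summit 1060 bp before the *Trp53* start, and its fold enrichment was 6.36 and 7.08 in WT and 6.11 and 6.83 in K43M. Region 2 had its summit 17 bp before the start, with 5.64 and 4.59 in WT and 5.0 and 5.92 in K43M. The genotypes overlapped at both. Region 3, in the first part of the gene 1156 bp after the start and in an intron, had 5.03 and 3.86 in WT and 5.39 and 5.05 in K43M, so that both K43M values lay above both WT values. Pileups there were 34 and 24 in WT and 39 and 31 in K43M, with exact 95% Poisson intervals of 23.5 to 47.5, 15.4 to 35.7, 27.7 to 53.3 and 21.1 to 44.0, which overlap. These intervals cover counting error only, and read ends are not independent molecules. Within each list the 3 regions stood between the 24.4th and the 70.8th percentile of peaks by -log10 q, thus in the middle of the range.

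The main promoter regions of the inhibitors of p53 ranked higher. *Mdm2* (chromosome 10, 117688875 to 117710758, minus strand) had 1 promoter region of 1321 bp with its summit 96 bp before the start. Its fold enrichment was 10.3 and 11.1 in WT and 10.1 and 9.21 in K43M, at percentiles of 92.0 to 94.3. Both K43M values lay below both WT values, but the pileups of 91 and 71 in WT and 88 and 76 in K43M overlapped. The lists differed at this locus in the peaks outside the promoter, which were called in K43M lists only.

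Region 1 of *Mdm2* was found past the 3′ end of the gene, 22336 bp from the start, in both K43M lists and in no WT list. Its fold enrichments were 6.15 and 10.3 in K43M replicates 1 and 2. The pileups were 15 (95% Poisson interval 8.4 to 24.7) and 26 (17.0 to 38.1), over local backgrounds of 1.60 and 1.62, and the summits lay 10 bp apart. The sequence around these summits is shown because this is 1 of the 2 member regions with a K43M-only pattern. The 200 bases are chr10:117688327-117688526 of GRCm38, plus strand, and the capitals mark the stretch between the K43M summits.
*Mdm2* region 1: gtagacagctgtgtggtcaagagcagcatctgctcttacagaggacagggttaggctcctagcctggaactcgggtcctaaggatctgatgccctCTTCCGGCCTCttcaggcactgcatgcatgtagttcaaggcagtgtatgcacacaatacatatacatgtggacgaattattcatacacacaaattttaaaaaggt

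Region 3 of *Mdm2*, 7021 bp before the start, was called in K43M replicate 2 alone, with a fold enrichment of 5.26, a pileup of 17 (9.9 to 27.2) and a percentile of 31.2. It is shown because its sequence held a near-complete p53 site. A p53 site here is a pair of 10-base half-sites of the p53 consensus with a spacer of 0 to 13 bases, and mismatches are counted over its 20 letters. The site lay 34 bp from the summit, had no spacer and 1 mismatch, at position 12 counted from the 5′ end of the first half-site. Among windows of 300 bp around all summits, 1.48% held a site with at most 1 mismatch. The 120 bases are chr10:117717685-117717804, plus strand, with the half-sites in capitals.
*Mdm2* region 3: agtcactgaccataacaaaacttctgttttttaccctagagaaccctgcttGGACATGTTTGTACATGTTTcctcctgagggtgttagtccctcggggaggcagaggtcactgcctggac

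*Mdm4* (chromosome 1, 132959484 to 133030561, minus strand) had 5 regions, the most of the 9 genes. Its promoter region, region 3, lay 5171 bp inside the gene at other transcript starts, with the summit in an untranslated exon. Fold enrichment there was 10.1 and 10.8 in WT and 10.2 and 8.86 in K43M, and the genotypes overlapped. Region 5, 9153 bp before the start and the farthest upstream, had 9.80 and 9.29 in WT and 8.85 and 7.61 in K43M, with both K43M values lower. Region 4, 3513 bp before the start, went the other way, with 4.75 and 6.47 in WT and 7.25 and 7.99 in K43M. This merged region of 1355 bp held 2, 2, 1 and 2 peaks in the 4 lists. The summits of the highest peaks lay up to 255 bp apart, so the lists may not be compared at the same peak. The values below for region 4 carry this limit. Its pileups were 16 (9.1 to 26.0) and 21 (13 to 32.1) in WT and 29 (19.4 to 41.6) and 34 (23.5 to 47.5) in K43M, over backgrounds of 2.58, 2.40, 3.14 and 3.38. The upstream flank of *Mdm4* thus held neighbouring regions whose K43M values lay on opposite sides of the WT values.

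The introns of *Mdm4* held 2 further regions that were not in all lists. Region 2, 18025 bp after the start, was absent from WT unnumbered and had a fold enrichment of 7.50 in the other WT list and of 8.96 and 10.7 in the K43M lists. Its pileups in the same lists were 15, 18 and 24, and their intervals overlapped. Without WT unnumbered, this region counted as present in all lists. Region 1, 47605 bp after the start, was found in WT replicate 2 (4.95) and K43M replicate 1 (6.19), 1 list of each genotype.

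*Ppm1d* (chromosome 11, 85311244 to 85347066, plus strand) had 4 regions. The promoter region 110 bp before the start had fold enrichments of 10.7 and 10.5 in WT and 11.0 and 11.6 in K43M, and both K43M values were above both WT values by a small margin. A neighbouring promoter region 803 bp after the start was weak and was called in WT unnumbered (3.01) and K43M replicate 1 (3.31) only, at percentiles of 1.5 and 11.7. Region 3, 8217 bp into the gene in an intron, was found in K43M replicate 1 alone (5.71, pileup 11). Region 4, 41812 bp from the start, was among the strongest of the 26 with 13.02, 14.98, 14.18 and 12.65, and it lay at the promoter of the neighbouring gene *Bcas3*.

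*Prmt5* (chromosome 14, 54507187 to 54517525, minus strand) held a region whose fold enrichment varied little between lists. Its promoter region 10 bp before the start had fold enrichments of 12.96 and 13.04 in WT and 12.57 and 12.54 in K43M, at percentiles of 97.2 to 99.04. Pileups were 104 (85.0 to 126) and 101 (82.3 to 123) in WT and 94 (76.0 to 115) and 76 (59.9 to 95.1) in K43M. The recovered background was 7.10 and 6.82 in WT and 6.56 and 5.14 in K43M. A second promoter region 1291 bp before the start was low, with 4.31, 3.22, 3.67 and 3.15, and the genotypes overlapped. No other region was found within 10 kb.

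Each of the 4 targets of p53 had a single promoter region, present in all lists, and 1 or 2 regions elsewhere. *Sesn2* (chromosome 4, 132492032 to 132510501, minus strand) encodes a stress-induced inhibitor of mTORC1 signalling. Its promoter region 47 bp before the start had 9.89 and 9.98 in WT and 9.11 and 8.35 in K43M, with both K43M values lower, whereas the pileups of 73 and 85 in WT and 73 and 70 in K43M shared a value. Region 2, 5147 bp before the start, was present in all lists with 9.13, 8.23, 9.22 and 7.89, at percentiles of 80.5 to 85.9. It is shown because it was the only region in all 4 lists whose summit window held a p53 site with at most 1 mismatch. The half-sites were 11 bases apart, the mismatch was at position 17 of the 20 letters, and the middle of the site was 1 bp from the summit. The 120 bases are chr4:132515589-132515708, plus strand, with the half-sites in capitals.
*Sesn2* region 2: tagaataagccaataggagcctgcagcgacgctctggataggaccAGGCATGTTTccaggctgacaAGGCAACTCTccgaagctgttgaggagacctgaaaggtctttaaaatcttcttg

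*Trp53inp1* (chromosome 4, 11156431 to 11174379, plus strand) encodes a p53-induced nuclear protein that takes part in autophagy and cell death. Its promoter region 74 bp before the start had 8.05 and 9.09 in WT and 9.05 and 9.43 in K43M, and the genotypes overlapped. Region 1, 2270 bp before the start and just outside the promoter window, was the other region with a K43M-only pattern. Its fold enrichments were 5.03 and 4.40, with pileups of 31 (21.1 to 44.0) and 23 (14.6 to 34.5) over backgrounds of 5.36 and 4.46. These fold enrichments were below the medians of their lists, and by -log10 q the peaks stood at percentiles of 49.0 and 32.1. The 200 bases around the summits, chr4:11154073-11154272, plus strand, are shown for the same reason as those at *Mdm2*, with the stretch between the K43M summits in capitals.
*Trp53inp1* region 1: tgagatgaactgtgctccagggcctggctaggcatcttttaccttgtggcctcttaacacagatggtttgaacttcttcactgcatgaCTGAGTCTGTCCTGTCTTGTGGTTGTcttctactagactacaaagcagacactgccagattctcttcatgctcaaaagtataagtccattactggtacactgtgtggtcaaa

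*Gadd45a* (chromosome 6, 67035096 to 67037457, minus strand) encodes a growth arrest and DNA damage protein. Its promoter region with the summit 3 bp after the start had 11.1 and 13 in WT and 10.3 and 12.5 in K43M. The lists of each genotype lay farther apart than the genotype means. Region 1, 8379 bp from the start and past the 3′ end, was called in K43M replicate 1 alone with 5.45 and a pileup of 11 (5.5 to 19.7). Its summit window was the third with a p53 site of at most 1 mismatch. The half-sites were 6 bases apart, the mismatch was at position 1, and the site lay 38 bp from the summit. The 120 bases are chr6:67029056-67029175, plus strand, with the half-sites in capitals.
*Gadd45a* region 1: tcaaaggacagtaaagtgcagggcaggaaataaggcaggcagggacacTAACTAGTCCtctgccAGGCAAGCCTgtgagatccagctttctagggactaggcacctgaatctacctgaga

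*Fas* (chromosome 19, 34290666 to 34327772, plus strand) encodes a death receptor of the cell surface. Its promoter region with the summit 53 bp after the start had 7.88 and 8.47 in WT and 8.93 and 6.99 in K43M, and the genotypes overlapped. Without scaling for depth, the pileups did not overlap, but their counting intervals did. The pileups were 31 (21.1 to 44.0) and 29 (19.4 to 41.6) in WT and 24 (15.4 to 35.7) and 19 (11.4 to 29.7) in K43M. The local background was 3.06 and 2.54 in WT and 1.80 and 1.86 in K43M, and its part in the fold enrichment was not tested. Region 1, 2821 bp before the start, was the only region seen in a WT list alone, with 3.85 in WT unnumbered at the 4.34th percentile. Region 3, 13250 bp into the gene in an intron, was found in K43M replicate 1 alone with 6.66.

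**Figure D2:**
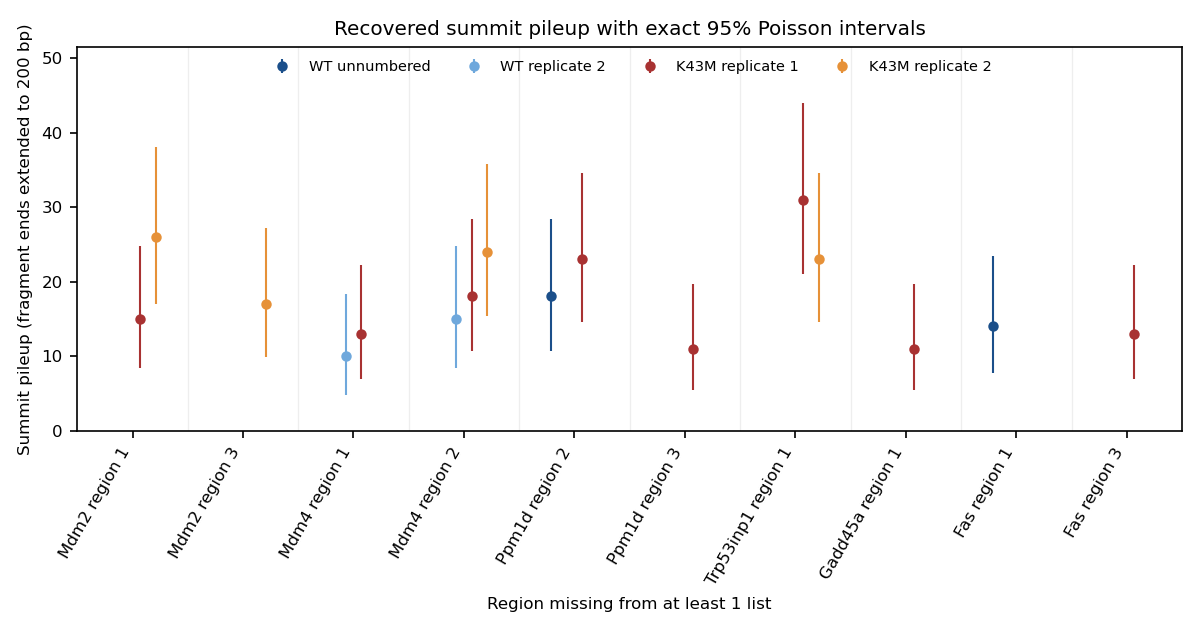
Points give the recovered summit pileup, in read ends extended to 200 bp, of the 10 member regions that were missing from at least 1 list, coloured by list, with exact 95% Poisson intervals as bars and no point where a list had no peak. The pileups lie between 10 and 31, and where 2 or 3 lists had a peak their intervals overlap.

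A list holds only signals that passed its threshold, at a -log10 q of 1.37 to 1.44 or more, so a missing peak is not a missing signal. Regions in all 4 lists had a median percentile of 80.4 over their 64 values, the 2 K43M-only regions 41.4 over 4 values, and the 8 others 26.2 over 12 values. Among the best 20000 peaks of each list, no member region was K43M-only. Both remained K43M-only with a -log10 q of at least 5, with equal numbers of peaks per list and without WT unnumbered. The *Mdm2* region stood at percentiles of 33.7 and 70.9 in the K43M lists and the *Trp53inp1* region at 49.0 and 32.1.

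**Figure D3:**
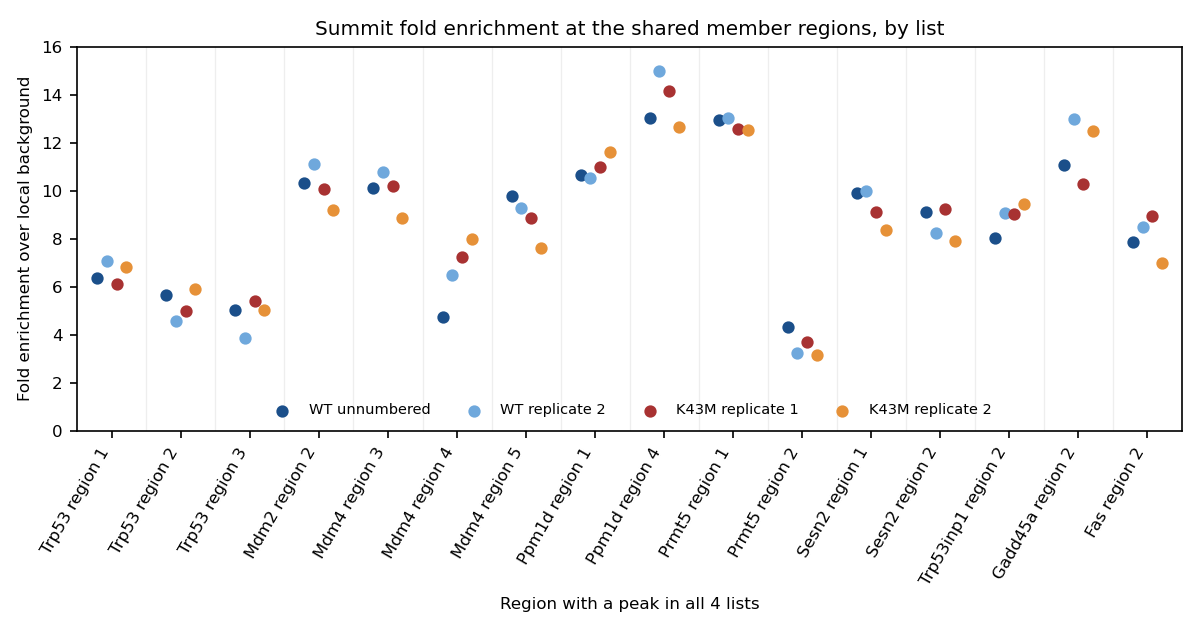
The y axis gives the fold enrichment at the summit over local background for the 16 member regions with a peak in all 4 lists (x axis), with 1 point per list coloured by list. Values run from 3.15 at *Prmt5* region 2 to 14.98 at *Ppm1d* region 4, and the lists lie farthest apart by ratio at *Mdm4* region 4, from 4.75 in WT unnumbered to 7.99 in K43M replicate 2.

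The heights of the 16 regions in all 4 lists were compared with limma on log2 fold enrichment, centred per list, fitted over all 21012 such regions. No member region passed an adjusted p of 0.05, and neither did any of the 21012 regions, with 0% called higher and 0% called lower in K43M. At an unadjusted p under 0.05, 1343 regions were higher and 1267 lower, and 1 of the 16 member regions was among them. The median difference over the 16 regions, K43M minus WT, was -0.05 on the log2 scale, beside 0.0015 over all regions, with 5 values above 0 and 11 below. The range was -0.22 at *Mdm4* region 5 to 0.46 at *Mdm4* region 4.

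The widest difference, at *Mdm4* region 4, was 0.46 ± 0.19 (SE, n = 2 lines per genotype), with a 95% interval of 0.016 to 0.90, an unadjusted p of 0.044 and an adjusted p of 0.385 by limma. Its value moved with the libraries used, at 0.23 without WT unnumbered, 0.69 without WT replicate 2, 0.58 without K43M replicate 1 and 0.33 without K43M replicate 2. With pileup in place of fold enrichment it was 0.85, with an unadjusted p of 0.015. The adjusted p by limma ranged from 0.163 to 0.834 over the alternatives. Differences at *Trp53* were -0.05 ± 0.16 at region 1, 0.10 ± 0.18 at region 2 and 0.25 ± 0.17 at region 3 (SE). The value at region 3 was 0.058 without WT replicate 2 and 0.435 without WT unnumbered. The interval at region 2, the one at the start, was -0.32 to 0.52, so changes within it in either direction were not excluded. For the promoter of *Mdm2* the difference was -0.15 with an interval of -0.49 to 0.18, and for that of *Prmt5* it was -0.05 with an interval of -0.38 to 0.29. The promoters of *Sesn2*, *Gadd45a*, *Fas* and *Trp53inp1* had values of -0.18, -0.08, -0.05 and 0.11.

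**Figure D4:**
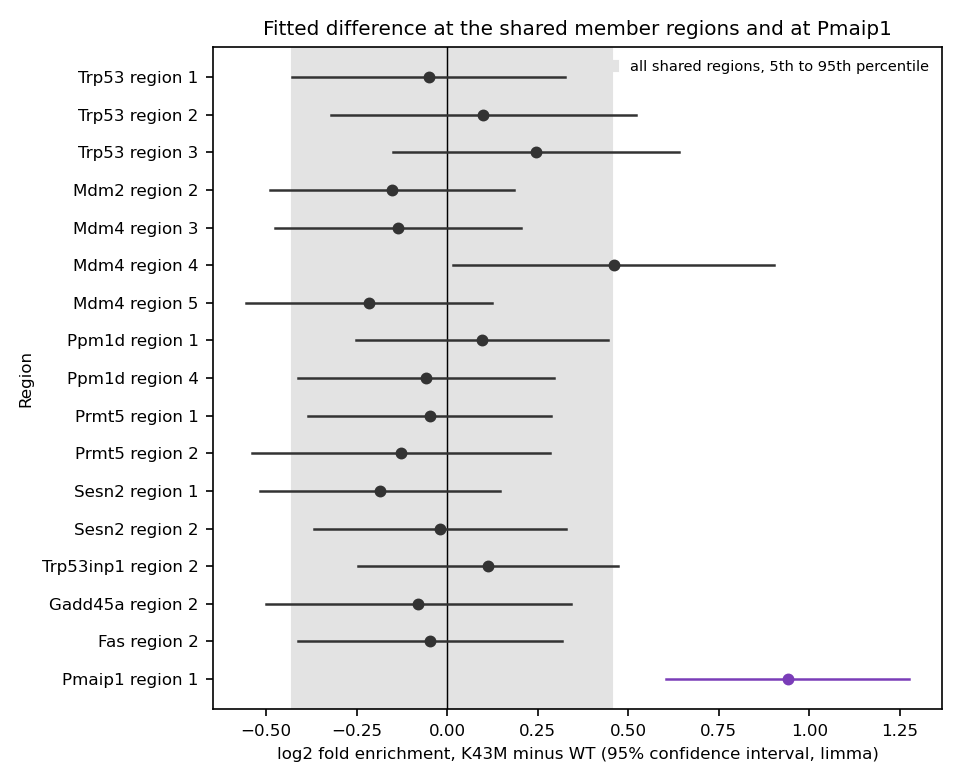
Points are the fitted differences in log2 fold enrichment, K43M minus WT, with 95% confidence intervals from limma as bars, for the 16 shared member regions and for the *Pmaip1* promoter region (purple), and the grey band spans the 5th to the 95th percentile of all 21012 regions, -0.43 to 0.46. Of the member regions, *Mdm4* region 4 alone has an interval that leaves out 0, and *Pmaip1* lies to the right of the band at 0.94.

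Both K43M values lay above both WT values at 3 of the 16 regions (*Trp53* region 3, *Mdm4* region 4 and *Ppm1d* region 1), against 21.2% of all regions. They lay below at 4 (*Mdm2* region 2, *Mdm4* region 5, *Prmt5* region 1 and *Sesn2* region 1), against 20.5% of all regions. These shares are near the background, and the other 9 regions overlapped. With each list centred on its median, *Ppm1d* region 1 and *Prmt5* region 1 overlapped between the genotypes, and both K43M values of *Mdm4* region 3 lay below both WT values.

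The summit windows of the member regions were read for sequence features that had played no part in choosing them. With at most 3 mismatches, 16 of 26 windows (61.5%) held a p53 site, against 49.3% of all windows. With at most 2 mismatches the count was 4 (15.4%) against 11.9%, and the fourth region besides the 3 shown above was the promoter of *Gadd45a*. The *Trp53* windows needed 3, 4 and 5 mismatches at regions 2, 1 and 3, and the *Mdm2* promoter window needed 4. None of the sites with at most 1 mismatch lay at a promoter, and 1 of the 3 lay in a region present in all lists. In the GRCm38 windows a CCAAT box (CCAAT on either strand) was found in 12 of 26 against 31.0% of all, an E-box (CACGTG) in 2 against 6.91%, an SP1 match (GGGGCGGGG) in 2 against 7.31% and an ETS match (CCGGAAGT) in 1 against 2.60%. The median GC content was 59.8% in the 12 windows at promoters of the members and 48.7% in the other 14. The other 14 include *Trp53* region 3 and *Ppm1d* region 4, which lay at promoters of neighbours. Genome-wide, with a promoter of any gene counted, the medians were 60.7% in promoter windows and 49.0% in the others.

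A wider list of 61 genes around p53 was read in the same way. A promoter peak in all 4 lists was found for 51 of them, against 47.6% of all protein-coding genes. None had one in both lists of a single genotype only, against 0.515% of all genes for WT and 2% for K43M. By role, these were 20 of 21 regulators upstream of p53, 1 of 2 p53 relatives, 6 of 9 arrest and feedback targets, 8 of 12 death targets and 16 of 17 repair and metabolism targets. The 6 genes without a promoter peak in any list were *Trp63*, *Sfn*, *Perp*, *Tnfrsf10b*, *Eda2r* and *Gdf15*, several of which are known mainly from epithelia. The remaining 4 differed between lists but not with the genotype. *Pml* had a peak in WT unnumbered alone, *Plk2* in K43M replicate 1 alone, *Gadd45g* in all but K43M replicate 2, and *Phlda3* in WT unnumbered and K43M replicate 2.

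Shared promoter regions of this list numbered 60, with a median difference of -0.0031 on the log2 scale and 30 values on either side of 0. By limma 0 passed the adjusted threshold, and 7 of the 60 had an unadjusted p under 0.05, against 2610 of all 21012 regions. The patterns nearest to *Trp53* region 2, by the Euclidean distance of centred log2 fold enrichment over the 4 lists, were those of *Ing1* at 0.24, *Setd7* at 0.31 and *Zfp385a* at 0.32. *Ing1* encodes a chromatin reader, *Setd7* a lysine methyltransferase and *Zfp385a* a zinc finger protein. The distance rests on 1 value per list, and both level and pattern enter it.

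The *Pmaip1* promoter, picked after its values were seen, had the widest difference of the list. *Pmaip1* encodes Noxa, a BH3-only protein that p53 can induce and that blocks the survival protein Mcl1. Its fold enrichment was 5.83 and 5.59 in WT and 11.0 and 10.8 in K43M. Pileups were 18 and 16 in WT and 56 and 36 in K43M, over local backgrounds of 2.26, 2.04, 4.16 and 2.42. The genotypes did not overlap in either measure, and the fitted difference was 0.94 ± 0.15 (SE) on the log2 scale, with an interval of 0.60 to 1.27 and an adjusted p of 0.133 by limma. With pileup in place of fold enrichment the difference was 1.46 and the adjusted p 0.0472, and over all alternatives the adjusted p ranged from 0.0472 to 0.396. The gene lies on chromosome 18, where the median local background of shared regions differed by -0.44 (log2, K43M minus WT, each list against its autosomes). At *Pmaip1* itself both K43M backgrounds lay above both WT backgrounds. The part of the background in the difference was not tested. None of the 9 genes lies on chromosome 12, 13 or 18, the chromosomes with the lowest such values. On the chromosomes of the 9 genes the values ran from -0.046 on chromosome 1 to 0.10 on chromosome 14.

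The limit of 10 kb decided which regions were counted. The farthest region inside it was *Mdm4* region 5, with a summit 9153 bp before the start. Just outside it lay 2 regions near *Prmt5*, 320 bp and 984 bp beyond the limit, called in K43M replicate 1 alone (5.16) and in WT unnumbered alone (5.64). Beyond *Trp53* the next region was 3849 bp past the limit and present in all 4 lists, with 6.56, 7.20, 9.09 and 7.50.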

How the data were processed

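Peak lists of 4 ATAC-seq libraries were analysed. Per the labels and the study's methods, the authors trimmed reads with Trimmomatic 0.36, mapped them to mm10 with BWA 0.7.15, filtered them with bedtools and SAMtools 1.3.1, and called peaks in each library with MACS2 2.1.0, with no control named. The deposited fold enrichment is the authors' ratio of summit signal to local background of the same library, with the same constant added to both. The deposited -log10 p and -log10 q values are the authors' peak scores. Read totals are not in these lists, so depth is known only through pileup and background, which were recovered from fold enrichment and -log10 p for 100% of peaks (tolerance 0.01 in -log10 p).

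Groups came from the labels for 3 lists and from the design text for WT unnumbered. Promoter windows, exons and gene bodies were taken from GENCODE mouse release M21, on the build of the lists, and sequences from the RefSeq copy of GRCm38. Merged regions were classed as promoter, internal or flank in that order. A region's height in a list was its highest peak. Heights were compared with limma 3.58.1 (R 4.3.3) with Benjamini-Hochberg adjustment over all regions in 4 lists, and peak counts with an exact permutation test (scipy 1.17.1). p53 sites were searched within 150 bp of the summit with at most 3 mismatches over 20 letters. Code was tested on simulated data.

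The 9 genes, the lists and the alternatives were chosen with earlier results of these data known. Named genes were the members with all their regions, and genes of the wider list that passed the test or had a genotype-only promoter. The 3 genes nearest to the *Trp53* promoter and protein-coding neighbours whose promoter held a member region were also named. Promoter windows of genes that are not protein-coding held *Mdm4* region 3 (*Gm29257*), *Sesn2* region 1 (*Gm12981*) and *Gadd45a* region 2 (*E230016M11Rik*). *Pmaip1* and the genes of the wider list without a uniform pattern were named after their values were seen. The limma p-values and SEs rest on the spread between lines, pooled in part over all 21012 regions. The permutation p follows from the order of the counts and measures no spread. Reads, expression and CDK6 binding were not analysed here. Promoter peaks of the erythroid markers are not reported here.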

Additional observations from a re-analysis of the deposited data

How the results depend on the processing

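All 9 genes kept a promoter peak in all lists under each of the alternatives, including a promoter window of 500 bp up- and downstream and protein-coding transcripts only. No alternative called a member region between the genotypes, and the smallest adjusted p among 167 values over 11 alternatives was 0.163. Counts of regions were within 1.5 times the reported ones except where noted. Without flanks, 15 regions remained at the loci, 10 of them in all 4 lists. K43M-only regions numbered 0 among the best 20000 peaks and 2 to 5 when each library was left out in turn, with 5 without K43M replicate 2. WT-only regions numbered 0 to 1, with 1 without WT replicate 2. Over all 21012 regions, limma called 139 higher and 71 lower in K43M with pileup, 10 and 5 with a trended and robust prior, and 1 lower among the regions above the median of mean fold enrichment. Leaving out each library gave 0 to 22 higher and 0 to 8 lower calls (20 and 4 without WT unnumbered, 22 and 8 without WT replicate 2), where the lone library is assumed to vary like the others. A p53 site with at most 2 mismatches was in 15.4% of member windows, against 11.9% of all windows. With at most 4 the shares were 92.3% and 91.1%. Genome-wide, 39.5% of promoter windows and 54.2% of the others held one with at most 3. A search of the whole regions, added after seeing the data, also gave 3 with at most 1 mismatch. With at most 2 it added *Ppm1d* regions 1 and 2 and *Fas* region 2, all at promoters. Among other regions of similar width, 29.1%, 25.1% and 24.3% held such a site. The *Mdm2* promoter region needed 3 mismatches over its whole length. The sign of the uncalled log2 difference turned at 9 regions. With pileup it was 0.0361 at *Trp53* region 1, 0.128 at *Mdm2* region 2, 0.151 at *Sesn2* region 2 and 0.0427 at *Gadd45a* region 2. Leaving out each library gave -0.186 to 0.0836 at *Trp53* region 1, -0.0764 to 0.276 at *Trp53* region 2, -0.162 to 0.0462 at *Ppm1d* region 4, -0.10 to 0.0045 at *Prmt5* region 1, -0.335 to 0.0793 at *Prmt5* region 2, -0.0930 to 0.0524 at *Sesn2* region 2, -0.274 to 0.116 at *Gadd45a* region 2 and -0.17 to 0.0757 at *Fas* region 2. The cause of these changes was not tested. The replicate numbers mark separate lines. With WT unnumbered taken as number 1, a choice made after seeing the data, deviations of same-numbered lists correlated at 0.0303 over regions, and a fit with the replicate number as a block gave 0 calls in either direction.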
